A study of Mus musculus with 1104 samples.

Results

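The 8 genes described here code for the transcription factor Nrf2 (Nfe2l2) and for 7 enzymes or transporters of its target programme (Slc7a11, Gclc, Gclm, Txnrd1, Srxn1, Nqo1 and Hmox1). They were taken by symbol from a count table of 20646 genes, and all 8 were found. The libraries came from male wild-type C57BL/6 mice that received a high-fat diet, with 60 kcal% from fat, from an age of 8 weeks until dissection. The 13 organs sampled were 3 fat depots (epididymal white, inguinal white and brown), 2 leg muscles (gastrocnemius and soleus), 4 brain regions (neocortex, olfactory bulb, hypothalamus and hippocampus), the pituitary gland, pancreas, small intestine and liver. They were taken at 0 days, 1 day, 3 days, 1 week, 10 days and 2, 3, 4, 5, 6, 7, 8, 10 and 12 weeks of the diet, and epididymal fat also at 16 and 20 weeks. Each combination of organ and time point had 6 libraries, 1104 in all, made from poly(A) RNA. The mice at 0 days are the only group without the diet analysed here, so diet, age and day of dissection cannot be told apart. The labels number the libraries 1 to 6 without tying organs or numbers to mice, so the p-values measure the spread between these libraries.

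Nrf2 is held low in resting cells by Keap1, which presents it for degradation. Oxidants and electrophiles block Keap1, and Nrf2 then enters the nucleus, pairs with a small Maf protein and binds antioxidant response elements near its target genes. Much of this control acts on the protein, so the mRNA level of Nfe2l2 and the activity of Nrf2 need not move together. The targets replenish glutathione and thioredoxin, reduce quinones and break down heme, and in liver and fat they are known to respond to lipid load and inflammation.

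Nfe2l2 (ENSMUSG00000015839.6) lies at chr2:75675513-75704641 and Srxn1 (ENSMUSG00000032802.8) at chr2:152105516-152111376 in build GRCm38, by the GENCODE M21 annotation. Nqo1 (ENSMUSG00000003849.8) lies at chr8:107388225-107403206 and Hmox1 (ENSMUSG00000005413.8) at chr8:75093621-75100589. Slc7a11 (ENSMUSG00000027737.10) lies at chr3:49892526-50443614, Gclm (ENSMUSG00000028124.15) at chr3:122245557-122270732, Gclc (ENSMUSG00000032350.9) at chr9:77754535-77794485 and Txnrd1 (ENSMUSG00000020250.10) at chr10:82833951-82897712. All 8 are protein-coding. Slc7a11, Gclm and Txnrd1 overlap annotated genes on the other strand, and since the sources used here do not give the strand setting of the counting, their counts may include reads of those genes. Nfe2l2 (with Gm24996), Slc7a11 (Gm37692 and Gm37498), Gclm (Gm6061) and Txnrd1 (Eid3) also overlap genes on their own strand, whatever that setting.

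The core of the antioxidant response element, TGACNNNGC, was searched on both strands in RefSeq promoter windows (GRCm38.p6, 250 bases before to 50 after each start site). Of the members, 6 had an entry in that table, and 4 of these 6 held the motif (66.7%), against 3781 of 27025 genes in all (14%). Counted by promoter, it was 4 of 8 against 4071 of 32851 (12.4%). The matches are shown because Nrf2 is known to bind elements with this core near its target genes. Whether these matches are such elements was not tested. Each is printed with 10 bases on either side, in the direction that reads the motif, with the motif in capitals. A match describes the letters in these windows and is no evidence of binding.
Nfe2l2, chr2:75704885-75704913, 240 bases before the start site: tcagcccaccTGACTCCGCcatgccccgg
Gclm, chr3:122245413-122245441, 134 bases before, strand opposite to the gene: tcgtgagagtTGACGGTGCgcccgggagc
Txnrd1, chr10:82859104-82859132, 92 bases before the start of 1 of its 3 promoters, opposite strand: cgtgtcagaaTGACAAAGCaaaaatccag
Srxn1, chr2:152105542-152105570, 28 bases after the start site, opposite strand: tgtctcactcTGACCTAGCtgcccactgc
The windows of Nqo1 and Slc7a11 held no match to these letters. Hmox1 and Gclc are named only.

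Libraries held 7670532 to 27036098 counts, with a median of 13464321. Counts differed beyond sampling noise in all 2760 pairs of libraries within a group (lowest chi-square per degree of freedom 2.11). The defining markers of each organ were present at high level, apart from Agrp in hypothalamus at 1.03 to 5.3 CPM (the count scaled to the size of the library) and apart from single libraries. By correlation over all genes 30 of the 1104 libraries stood apart from their organ, a rule chosen after the data were seen, and 11 of them were closer to another organ. Soleus had 12 of the 30, inguinal fat 10, gastrocnemius 4, and brown fat, epididymal fat, olfactory bulb and pancreas 1 each. Replicate 6 of olfactory bulb at 4 weeks resembled hypothalamus (r = 0.977, against 0.925 with its own organ) and had 0 CPM of Eomes, where the other 83 had at least 119.6. In gastrocnemius 4 libraries (2 weeks replicate 6, 3 weeks replicates 3 and 6, 10 weeks replicate 4) were closer to soleus, with 4954 to 7991 CPM of the fast myosin Myh4 against 20774 to 78286 in the rest. Replicate 2 at 3 days in epididymal fat and replicate 2 at 3 days in inguinal fat were each closer to the other white depot. Among the groups of 0 days, 1 day and 12 weeks only soleus was touched, by replicate 1 at 0 days and replicate 6 at 1 day. Without the 30 libraries 5 calls of a member at a later time point were lost and 25 gained (262 in place of 242); the 5 are given below with and without them.

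At 0 days the members had different orders of organs (the plot of 0-day levels). Levels in this paragraph and the next are CPM on library totals, means ± SD over 6 libraries. Places in an order depend on the scaling, above all that of pancreas, which moved from 13 of 13 organs to 9 for Nfe2l2 and Gclc and to 10 for Txnrd1 with TMM factors over all organs, and from 12 to 3 for Gclm and to 6 for Hmox1. Nfe2l2 was highest in small intestine (223.6 ± 31.5), followed by epididymal fat (103.9 ± 5.04), inguinal fat (98.7 ± 8.54) and brown fat (82.7 ± 7.15), and lowest in pancreas (12.7 ± 1.59), or, with TMM factors over all organs, in neocortex. With those factors brown fat took place 2, epididymal fat 3, soleus 4 and inguinal fat 7. Slc7a11, the cystine importer that supplies cysteine for glutathione, was a gene of brain: olfactory bulb had 75.1 ± 6.19, neocortex 52.7 ± 3.67, hypothalamus 43.6 ± 4.43 and hippocampus 38.8 ± 10.9. Outside brain its highest mean was 7.44 ± 3.66, in inguinal fat, and in liver it had 0 counts among 72148265 in 6 libraries, which allows up to 0.0416 CPM over the group (3 counts, counting error only). Gclc and Gclm, the catalytic and modifier subunits of glutamate-cysteine ligase, which makes the first step of glutathione synthesis, were both highest in liver (202.7 ± 29.9 and 211.3 ± 15.2) and next in small intestine (87.4 ± 22.4 and 176.1 ± 21).

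Txnrd1, the cytosolic thioredoxin reductase, led in small intestine (316.0 ± 12) over liver (128.8 ± 8.71), and was lowest in pancreas (16.5 ± 3.44), or in neocortex with the TMM factors. Srxn1, sulfiredoxin, which restores overoxidised peroxiredoxins, was high in small intestine (269.0 ± 8.69) and in pituitary gland (275.0 ± 82.8), which did not differ beyond their spread, and then hypothalamus (112.6 ± 4.22), which came after soleus with the TMM factors. Nqo1, a quinone reductase, led in pituitary gland (42.3 ± 5.3) over small intestine (32.2 ± 2.72), an order that reversed with the TMM factors, and pancreas had 0.239 ± 0.239. Hmox1, heme oxygenase 1, was highest in inguinal fat (58.4 ± 12.6), epididymal fat (50.8 ± 15.5), brown fat (36.0 ± 25.8) and liver (17.4 ± 4.42), neighbours that did not differ beyond their spread, and lowest in small intestine (1.69 ± 0.417). From the highest to the lowest organ the means spanned 17.6-fold for Nfe2l2, 19.1-fold for Txnrd1, 21.2-fold for Gclc, 23.5-fold for Gclm, 34.6-fold for Hmox1, 77.2-fold for Srxn1 and 177-fold for Nqo1. With the TMM factors the spans were 21.1-fold for Nfe2l2, 7.83-fold for Txnrd1, 16.3-fold for Gclc, 22.2-fold for Gclm, 24.3-fold for Hmox1, 23.3-fold for Srxn1 and 42.3-fold for Nqo1. Of 96 pairs of neighbouring organs in these orders, 38 differed by an exact two-sided permutation test (adjusted p under 0.05 over the 96 pairs; 0.00217 is the smallest p it allows), between 2 of 12 for Hmox1 and 7 of 12 for Gclm.

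Between genes, levels were compared per kilobase of exon. In small intestine at 0 days Srxn1 had 95.4 CPM per kb, Nfe2l2 58.9, Txnrd1 44.6, Gclm 28, Gclc 23.2 and Nqo1 20.7, but Hmox1 0.964 and Slc7a11 0.131. In liver the order was another: Gclc had 53.8 CPM per kb, Gclm 33.6, Txnrd1 18.2, Nfe2l2 13.0, Hmox1 9.92, Srxn1 8.76 and Nqo1 2.63. The glutathione synthesis pair therefore led in liver, while sulfiredoxin led in small intestine.

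**Figure D1:**
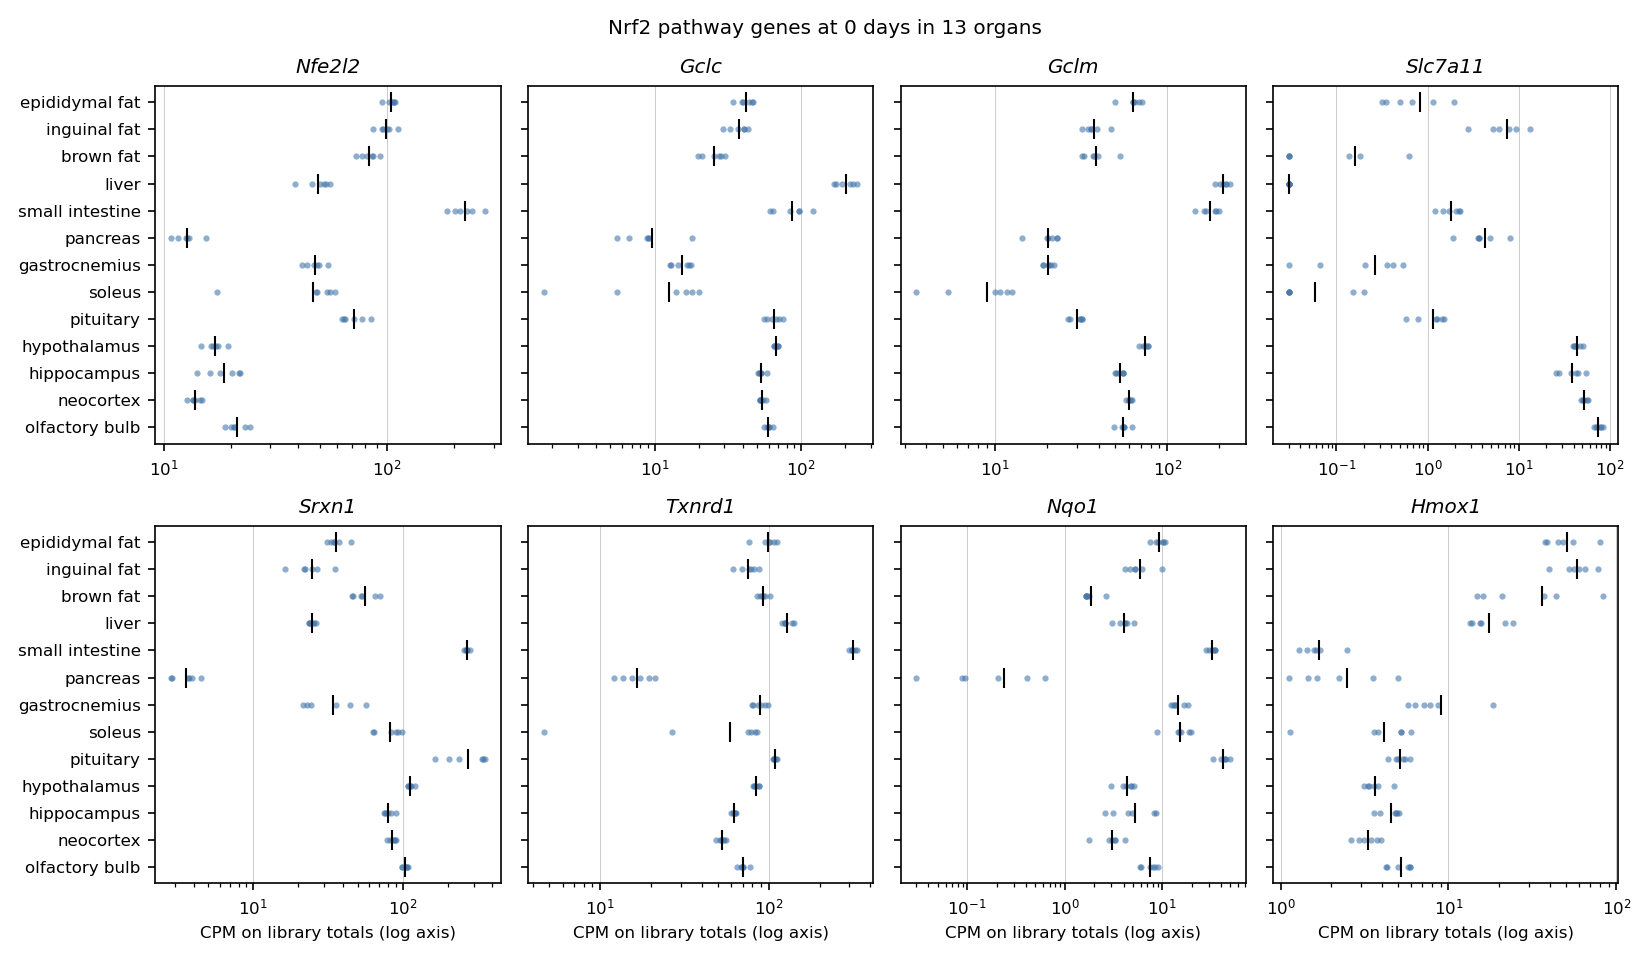
Levels of the 8 genes in 13 organs at 0 days, as CPM on library totals (log axis). Each point is 1 library, a point at the left edge is a library with no count, and the black tick is the mean of 6. The 4 brain regions stand above the other organs for Slc7a11, liver and small intestine lead for Gclc and Gclm, and Hmox1 is highest in the 3 fat depots.

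From here on, CPM are scaled by TMM within an organ, and changes are log2 fold changes against 0 days from edgeR's quasi-likelihood test with its standard error (SE) and the Benjamini-Hochberg p over all genes tested in the organ. Of 104 combinations of member and organ, 99 passed the filter on low counts. Slc7a11 did not pass in brown fat, gastrocnemius, liver and soleus, nor Nqo1 in pancreas. A gene is called where the adjusted p is under 0.05. At 12 weeks 33 of the 99 were called (33.3%), 22 higher (22.2%) and 11 lower (11.1%), against 27.7% of all tests in the 13 organs (14% higher and 13.7% lower). Over all time points together, 57 of 99 differed between some of them (57.6%, against 49% of all genes). Of 1303 tests of a member at a later time point 242 were called (18.6%), 125 higher (9.59%) and 117 lower (8.98%), where all genes gave 18.3% (9.61% higher and 8.74% lower). Over all later time points the members' shares were thus near those of all genes in both directions. At 12 weeks their share called higher was above that of all genes and their share called lower was below it, differences that were not tested.

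Srxn1 and Nfe2l2 were the members called in most organs at 12 weeks, and mostly higher. Srxn1 was higher in 7 organs (epididymal and inguinal fat, liver, pituitary gland, hypothalamus, olfactory bulb and neocortex) and lower in 1, the small intestine. Nfe2l2 was higher in 6 of 13 (epididymal fat, liver, small intestine, soleus, olfactory bulb and neocortex) and lower in 0. Hmox1 was higher in the 2 white fat depots, and Txnrd1 in epididymal fat and small intestine. The others moved in both directions or down: Nqo1 was higher in 2 organs and lower in 3 of 12, Slc7a11 higher in 2 and lower in 3 of 9, Gclm higher in 1 and lower in 2, and Gclc lower in 2.

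By organ, 7 of 8 members were called at 12 weeks in epididymal fat (60.4% of all genes), 5 of 8 in inguinal fat (44.6%), 4 of 7 in liver (42%), 4 of 8 in neocortex (25%) and 4 of 8 in olfactory bulb (20.8%). Pituitary gland had 3 of 8 (45.6% of all genes), small intestine 3 of 8 (38.9%), soleus 2 of 7 (3.88%) and hypothalamus 1 of 8 (6.8%). By edgeR 0 were called in brown fat (27.6% of all genes), hippocampus (25.6%), gastrocnemius (5.94%) and pancreas (5.9%), where 1, 1, 2 and 2 members had an unadjusted p under 0.05 and DESeq2 called 0 as well. In the organs with 4 or more calls the median change of the tested members was 0.42 in epididymal fat, 0.14 in inguinal fat, 0.26 in liver, 0.10 in neocortex and -0.01 in olfactory bulb, where the medians of all genes lay between -0.01 and 0.01. Soleus, with 2 calls, had the largest median of any organ (0.52, against -0.06 for all genes).

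**Figure D2:**
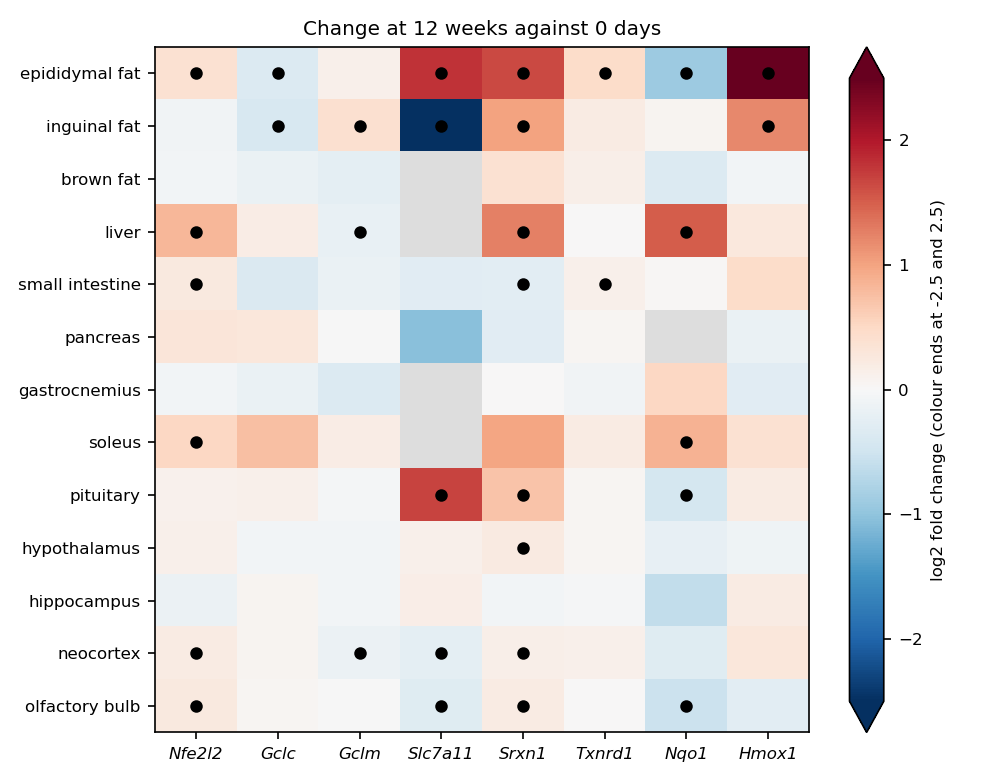
Log2 fold change at 12 weeks against 0 days for the 8 genes (columns) in 13 organs (rows), from edgeR; a black dot marks an adjusted p under 0.05 and grey a gene that did not pass the filter on low counts. Hmox1 and Srxn1 are higher in both white fat depots, Nqo1, Srxn1 and Nfe2l2 in liver, and the Slc7a11 column holds both the largest fall, in inguinal fat, and rises in epididymal fat and pituitary gland.

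The 2 largest changes of a member at 12 weeks were in white fat, Slc7a11 in inguinal fat (-3.89) and Hmox1 in epididymal fat (2.5). In epididymal fat at 12 weeks Hmox1 had risen 2.5 on the log2 scale and Srxn1 1.65, Slc7a11, Txnrd1 and Nfe2l2 were also higher, and Nqo1 and Gclc were lower. Over its 15 later time points 50 of 120 tests of a member were called (41.7%, against 45.2% for all genes), 23 higher and 27 lower.

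Hmox1 in epididymal fat had 33.5 CPM in the lowest library at 0 days, a median of 44.7 and 70.8 in the highest. At 12 weeks the values were 152.2, 213.0 and 452.0. All 6 libraries of 12 weeks were above all 6 of 0 days, and the change was 2.5 (SE 0.25, adjusted p = 1.5e-14 by edgeR). It was first called at 5 weeks (0.59), not at 6 weeks, and at every time point from 7 weeks (1.18) on, and the mean stayed near its 12-week level of 265.5 ± 120 CPM at 16 weeks (246.6) and 20 weeks (237.5 ± 52.4).

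Srxn1 followed the same course on a smaller scale. Its lowest, median and highest CPM were 27.8, 32.6 and 39.9 at 0 days and 62.5, 93.1 and 169.8 at 12 weeks. The groups did not overlap (1.65, SE 0.19, adjusted p = 2.0e-12 by edgeR), and the call held at all 6 time points from 7 weeks on. Nfe2l2 itself rose late and little, from 93.8, 95.3 and 98.2 CPM to 102.9, 123.9 and 150.0, again without overlap (0.39, SE 0.084, adjusted p = 5.0e-05 by edgeR), and was called at 12, 16 and 20 weeks only.

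Txnrd1 first fell and then rose. Its CPM were 76.4, 92.4 and 99.8 at 0 days, and the mean was 67.5 ± 7.65 at 3 weeks. It was called lower at 5 time points from 3 days to 3 weeks (-0.43 to -0.26) and higher at 12 weeks, with 91.8, 117.8 and 174.4 CPM and 4 of 6 libraries above all of 0 days (0.46, SE 0.11, adjusted p = 0.00017 by edgeR). Without replicate 2 of 3 days, the library that resembled inguinal fat, the call at 3 days (-0.26, adjusted p = 0.046) was lost (-0.28, adjusted p = 0.0503).

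Slc7a11 was near the limit of counting, with 0.288, 0.576 and 1.72 CPM at 0 days and 0.672, 2.91 and 4.54 at 12 weeks. The groups overlapped, 3 of 6 libraries being above all of 0 days (1.81, SE 0.7, adjusted p = 0.021 by edgeR). Without replicate 5 of 12 weeks the change was 1.59 and was not called (adjusted p = 0.053), nor at 12 or 20 weeks without the least correlated library of each group (1.62 and 1.64).

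Nqo1 and Gclc moved the other way. Nqo1 had 6.89, 8.96 and 10.1 CPM at 0 days and 3.69, 4.47 and 6.08 at 12 weeks, with no overlap (-0.90, SE 0.22, adjusted p = 0.00021 by edgeR), and was called lower at 9 of 15 time points, first at 1 week. Gclc went from 34.3, 38.1 and 42.8 CPM to 26.0, 29.7 and 37.5, with 5 of 6 libraries below all of 0 days (-0.34, SE 0.10, adjusted p = 0.0028), and was called lower at 13 of 15 time points, first at 3 days and most at 10 weeks (-0.51). Its partner Gclm was called at 0 of 15 by edgeR (0.12 at 12 weeks, adjusted p = 0.41), with an unadjusted p under 0.05 at 1. At 20 weeks 7 of 8 members were called against 0 days (60.8% of all genes), with Hmox1 at 2.34, Srxn1 1.63, Slc7a11 1.74, Txnrd1 0.47, Nfe2l2 0.41, Nqo1 -0.70 and Gclc -0.25. Between 12 and 20 weeks 0 of 8 were called by edgeR (1.91% of all genes), and 0 had an unadjusted p under 0.05.

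**Figure D3:**
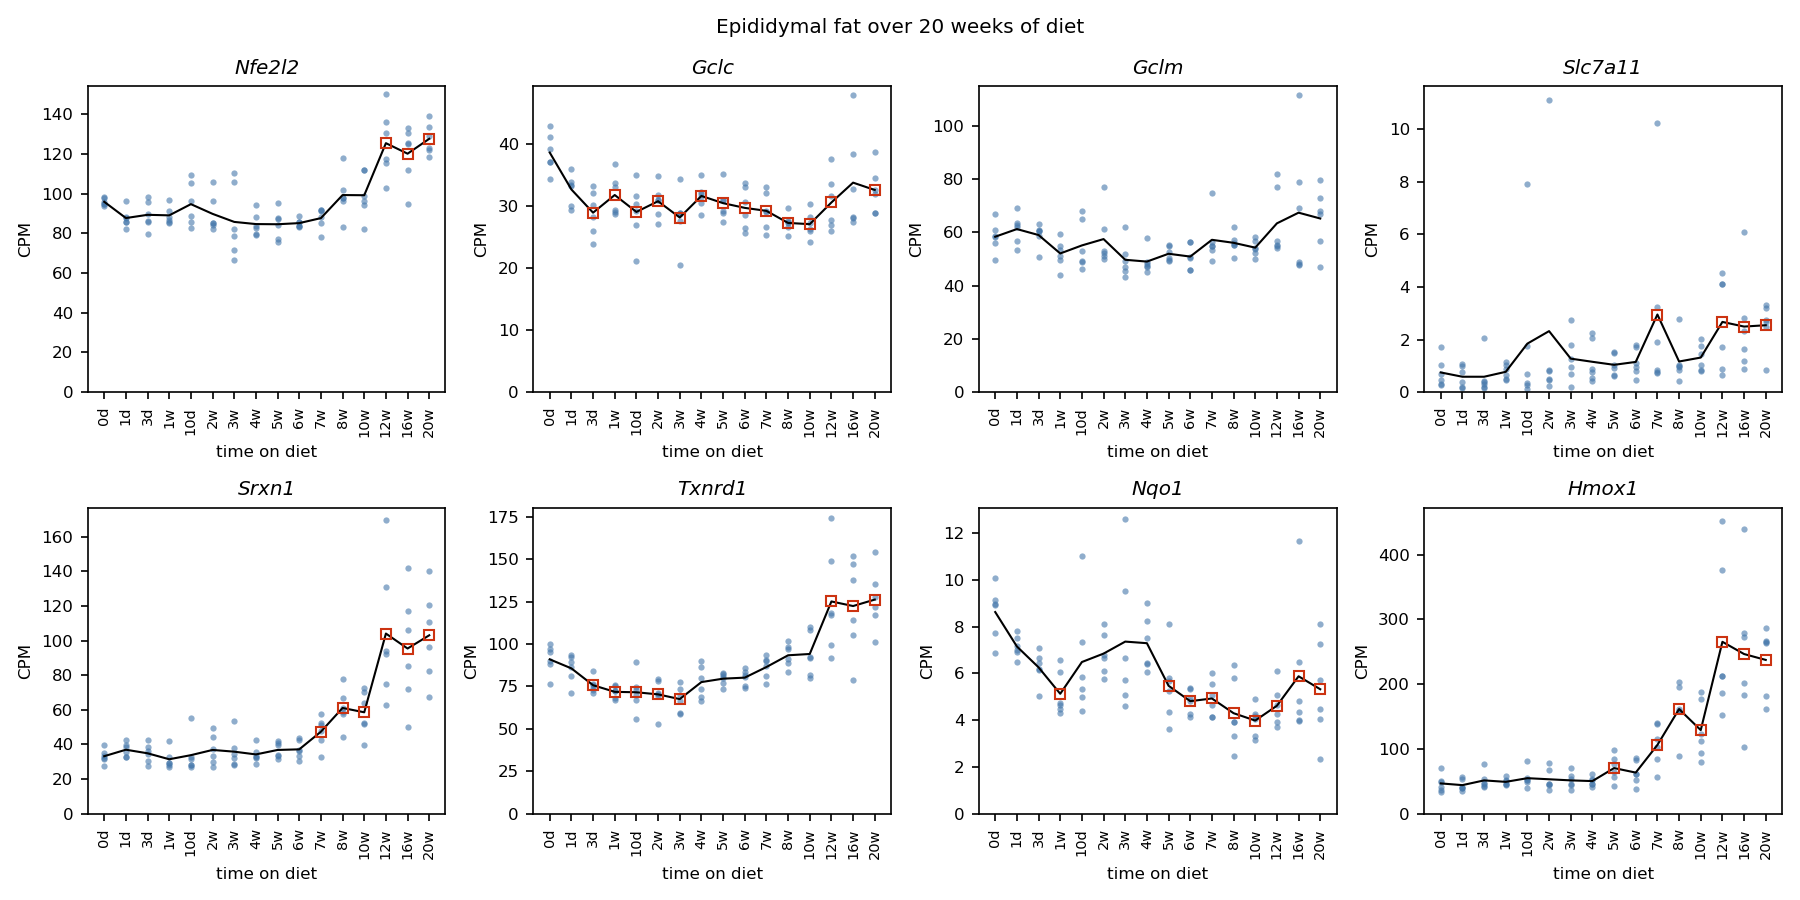
CPM (TMM-scaled) of the 8 genes in epididymal fat at 16 time points of the diet; dots are libraries, the line joins the means of 6, and red squares mark time points called against 0 days by edgeR. Hmox1 is called at 5 weeks and both Hmox1 and Srxn1 at every time point from 7 weeks, Txnrd1 dips before it rises, and Gclc and Nqo1 lie below 0 days at most time points.

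Marker genes of cell types moved in this depot as well. All 17 macrophage markers were higher at 12 weeks (median 2.09, all genes -0.003), and their summed level went from 1475-2156 to 7121-16430 CPM. Of 8 adipocyte markers 7 were lower, from 30150-43760 to 11240-17170 CPM. In bulk tissue more cells of a type and more RNA per cell cannot be told apart. Of 6 tested markers of red blood cell precursors 5 were lower (573-1711 to 329.0-535.5 CPM). Of B-cell and lymph-node genes 2 of 7 tested were higher (3.95-11.8 to 13.4-38.2 CPM) and of epididymis genes 2 of 6 lower (6.02-444.0 to 3.34-311.0 CPM), both below the share of all genes called at 12 weeks (60.4%). At 20 weeks, when 60.8% of all genes were called, 7 of 7 B-cell and lymph-node genes were higher (median 3.53, a summed 45.8 CPM or more in every library), as were all 17 macrophage markers (8127-13170 CPM), and all 8 adipocyte markers were lower (11650-15240 CPM). The part of these genes in the members' changes was not tested.

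Libraries of 1 time point differ in macrophage level without differing in time on diet, so each member was compared with the mean of the 17 macrophage genes as a deviation from the time-point mean, over 96 libraries and for 8 relations. Hmox1 had Pearson's r = 0.856 (rho 0.845), Srxn1 0.751 (rho 0.727) and Nfe2l2 0.677 (rho 0.667), each with a permutation p of 1e-05, the smallest possible with 100000 permutations. When the 2 libraries with the most extreme macrophage levels were left out and the deviations of the other 94 taken anew, these were 0.824, 0.704 and 0.637. Txnrd1 had r = 0.299 (permutation p = 0.012; rho 0.204, p = 0.061), and 0.158 (p = 0.17) without those 2 libraries, so that relation rests on them. By the same permutation test the other members had 0.206 (Gclm, p = 0.11), 0.050 (Nqo1, p = 0.67), 0.031 (Slc7a11, p = 0.78) and -0.142 (Gclc, p = 0.24). Without the 2 libraries Gclc had -0.227 (permutation p = 0.024; rho -0.203, p = 0.066), while Gclm (0.120), Nqo1 (0.048) and Slc7a11 (0.032) stayed at a p above 0.05. Among the 8 members Hmox1, Srxn1 and Nfe2l2 thus had the highest r with and without those libraries, and the levels compared come from the same libraries. The r of all other genes with the macrophage mean is not given here, so these values do not show a relation particular to the members.

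**Figure D4:**
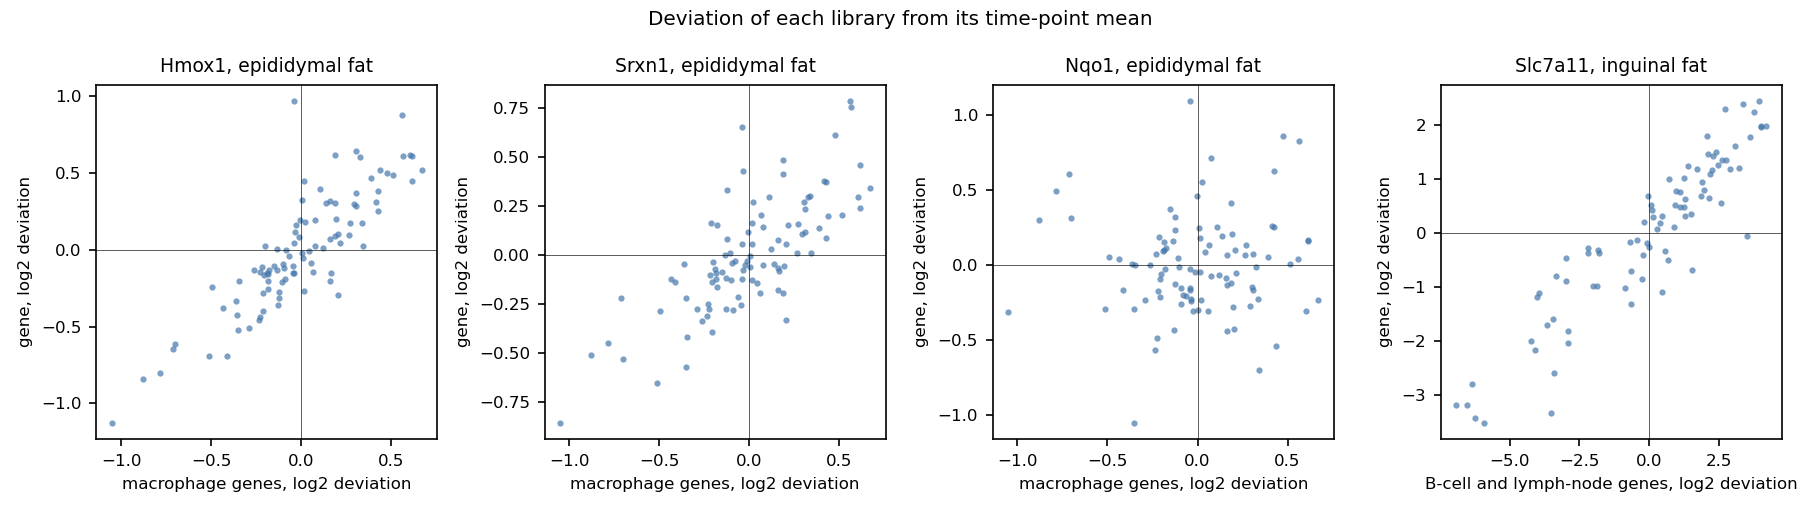
Deviations from the time-point mean (log2 CPM) of Hmox1, Srxn1 and Nqo1 against the mean of the macrophage genes in epididymal fat (96 libraries), and of Slc7a11 against the mean of B-cell and lymph-node genes in inguinal fat (84 libraries); each point is 1 library. Hmox1 (r = 0.856), Srxn1 (r = 0.751) and Slc7a11 (r = 0.922) follow the marker genes, and Nqo1 (r = 0.050) does not.

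Other genes around the pathway were called in both directions in epididymal fat at 12 weeks, where 60.4% of all genes were called and most of these lists lay near or below that share. Among 11 regulators of Nrf2 4 rose and 2 fell: Bach1, the repressor that competes for the response element (1.03), the Keap1-binding autophagy receptor Sqstm1 (0.64), the kinase Gsk3b (0.85) and the relative Nfe2l1 (0.31) were higher, and Keap1 (-0.20) and the ubiquitin ligase component Btrc (-0.37) lower. Of 16 tested detoxifying targets 7 rose and 5 fell, led by Akr1b8 (2.81), Ugdh (0.61) and Gsta4 (-3.11), a glutathione transferase for lipid peroxidation products. Of 6 genes of NADPH supply 4 rose, among them G6pdx (1.06), Pgd (0.85) and Idh1 (0.69), and Tkt fell (-0.70). In heme and iron handling 4 of 9 rose and 1 fell, with the biliverdin reductase Blvra at 1.6, the heme transporter Slc48a1 at 0.98 and the iron exporter Slc40a1 at -0.84.

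Of 9 genes of glutathione use 1 rose (Glrx, 1.26) and 4 fell, including Oplah (-1.0) and Gpx3 (-2.69). Of 10 thioredoxin and peroxiredoxin genes 1 rose (Prdx1, 1.08) and 2 fell (Txnip -0.91, Txn2 -0.54), and of 4 superoxide dismutases and catalase 2 rose and 1 fell. Of 12 ATF4 targets 2 rose and 4 fell (Ddit3 0.88, Asns -1.29, Phgdh -1.21). ATF4 is the stress factor that, like Nrf2, is known to control Slc7a11. Among 10 core clock genes 3 rose and 7 fell, among them Nr1d1 (-2.12) and Dbp (-2.62), and the hour of dissection is not given in the sources used here.

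In inguinal fat 5 of 8 members were called at 12 weeks, and over all later time points 21 of 104 tests (20.2%, all genes 22%). Hmox1 had 34.8, 51.8 and 67.2 CPM at 0 days and 94.2, 126.0 and 139.5 at 12 weeks, with no overlap (1.20, SE 0.26, adjusted p = 0.00010 by edgeR). Srxn1 had 14.4, 20.5 and 36.9 against 40.6, 44.3 and 51.5, also without overlap (1.00, SE 0.23, adjusted p = 0.00030 by edgeR). Both were called at 6 time points. For Srxn1 the call at 2 weeks (0.66) was lost without the libraries that stood apart (0.41).

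The glutathione synthesis genes split. Gclm was higher (0.40, adjusted p = 0.029 by edgeR), with overlapping groups, and Gclc lower without overlap, from 30.1, 34.0 and 37.9 CPM to 22.6, 25.5 and 27.8 (-0.41, adjusted p = 0.010). Slc7a11 had the largest change of any member in any organ at 12 weeks. It had 2.92, 6.10 and 12.2 CPM at 0 days and 0.215, 0.359 and 0.724 at 12 weeks (-3.89, SE 0.92, adjusted p = 0.00036 by edgeR), the groups were far apart, and it was called at 7, 8, 10 and 12 weeks. All 8 genes of B cells and lymph node fell with it (median -6.74), from a summed 568-1715 to 5.75-22.1 CPM, when 44.6% of all genes were called. Among them Glycam1 marks the vessels of lymph nodes. Within time points Slc7a11 followed these genes over 84 libraries (r = 0.922, rho 0.915, permutation p = 1e-05), a relation added after the data were seen. Of the 8 relations computed, Gclm (-0.717), Nqo1 (-0.560), Nfe2l2 (-0.531) and Srxn1 (-0.501) were the most negative. Gclc was positive (0.457, rho 0.555, permutation p = 0.00024). The r of all other genes with the B-cell and lymph-node mean is not given here. Muscle genes ran from 9.8 to 33100 CPM within the 0-day group of this depot alone, and their part was not tested.

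The changes at 12 weeks differed between depots for 8 of 24 tests of a difference in edgeR (interaction of organ and time). Against inguinal fat, epididymal fat rose more in Hmox1 (difference 1.24, SE 0.34, adjusted p = 0.0016) and Nfe2l2 (0.42, SE 0.11, adjusted p = 0.0012), and differed in Nqo1 (-1.03, SE 0.36, adjusted p = 0.015) and Slc7a11 (5.63, SE 1.17, adjusted p = 3.6e-05), where 39.4% of all genes were called. Srxn1 was not called there (0.60, SE 0.28, adjusted p = 0.079). Against brown fat the differences were 2.53 for Hmox1, 1.23 for Srxn1 and 0.42 for Nfe2l2 (39.9% of all genes), and between inguinal and brown fat 0.60 for Gclm (30.4% of all genes). Between gastrocnemius and soleus 0 of 7 were called by edgeR (0.348% of all genes), and 3 of 7 had an unadjusted p under 0.05.

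Brown fat had its calls before 12 weeks, 16 of 91 tests over the later time points (17.6%, all genes 19.3%). Txnrd1 had 80.6, 88.6 and 103.4 CPM at 0 days and 123.3, 134.3 and 154.3 after 1 day, with no overlap (0.62, SE 0.12, adjusted p = 5.6e-05 by edgeR; 17.9% of all genes were called at 1 day). It was called at 8 time points and was at 0.14 at 12 weeks. Hmox1 varied widely between libraries at 0 days and 7 weeks and less at 2 weeks: 14.1, 27.1 and 83.9 CPM at 0 days, 8.04, 10.1 and 11.3 at 2 weeks (-1.82, SE 0.49, adjusted p = 0.0041, no overlap) and 18.0, 52.9 and 249.2 at 7 weeks (1.24, adjusted p = 0.041). Without replicate 1 of 7 weeks the rise at 7 weeks was 0.50 and not called (adjusted p = 0.49). Srxn1 was called at 4 time points, among them 7 weeks (57.9, 97.7 and 247.4 CPM against 41.5, 51.6 and 71.1; 1.10, and 0.72 without the same library, both called). Its call at 2 weeks (0.57) was lost without replicate 6 (0.32), a library that stood apart, and without the libraries that stood apart Srxn1 was called at 1 day (0.52). Of 17 macrophage genes 12 were higher at 12 weeks (150.9-438.5 to 300.7-642.9 CPM) and 5 of 8 adipocyte genes lower (27.6% of all genes were called), and their part was not tested.

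Liver had early falls and late rises of members, which overlapped in time. Gclc and Gclm fell on the first day and stayed low for weeks. Srxn1 and Nfe2l2 were called higher from 7 weeks on, Nfe2l2 also at 5 weeks, and Nqo1 from 8 weeks on. At 7 weeks Gclc and Gclm were still called lower. Over the later time points 35 of 91 tests were called (38.5%, all genes 17.8%), 12 higher and 23 lower.

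Gclc had 171.5, 204.5 and 248.8 CPM at 0 days and 116.7, 135.2 and 149.4 after 1 day. Every library of 1 day was below every one of 0 days (-0.61, SE 0.097, adjusted p = 4.6e-06 by edgeR; 9.65% of all genes were called). It was called lower at 10 time points from 1 day to 7 weeks, most at 3 weeks (-0.72), and had returned by 8 weeks (0.04) and 12 weeks (186.4, 240.0 and 283.2 CPM; 0.19, adjusted p = 0.12). Gclm fell less and did not return: it had 191.4, 216.3 and 235.3 CPM at 0 days, 158.2, 177.0 and 200.3 at 1 day (-0.26, SE 0.047, adjusted p = 4.8e-05) and 179.2, 191.3 and 197.3 at 12 weeks (-0.18, adjusted p = 0.0012), and was called at 12 of 13 time points.

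Nqo1 in liver rose late, from 3.11, 4.21 and 5.16 CPM at 0 days to 9.63, 12.2 and 14.4 at 12 weeks, with no overlap (1.52, SE 0.22, adjusted p = 1.4e-08 by edgeR), and was called at 8, 10 and 12 weeks. Srxn1 rose from 23.7, 25.2 and 26.8 CPM to 38.6, 62.5 and 72.8 (1.26, SE 0.12, adjusted p = 4.5e-14), without overlap, and was called at 4 time points from 7 weeks on. Nfe2l2 rose from 39.6, 51.9 and 56.6 CPM to 85.2, 86.9 and 97.4 (0.84, SE 0.11, adjusted p = 2.1e-09), again without overlap, and was called at 5 weeks and from 7 weeks on. Liver was the organ with the largest rise of Nfe2l2 at 12 weeks. Hmox1 was called at 0 of 13 time points by edgeR (0.26 at 12 weeks, adjusted p = 0.24), with an unadjusted p under 0.05 at 4, and Txnrd1 once, lower, at 1 week (-0.17). Macrophage genes had nearly the same summed level at 0 days (296.9-420.0 CPM) and 12 weeks (299.2-426.0), with 3 of 17 higher and 1 lower. Of 6 tested adipocyte genes 4 were higher (133.8-166.7 to 214.0-335.7 CPM), when 42% of all genes were called. Among them were Cidec and Fabp4, which fatty hepatocytes are known to express as well.

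**Figure D5:**
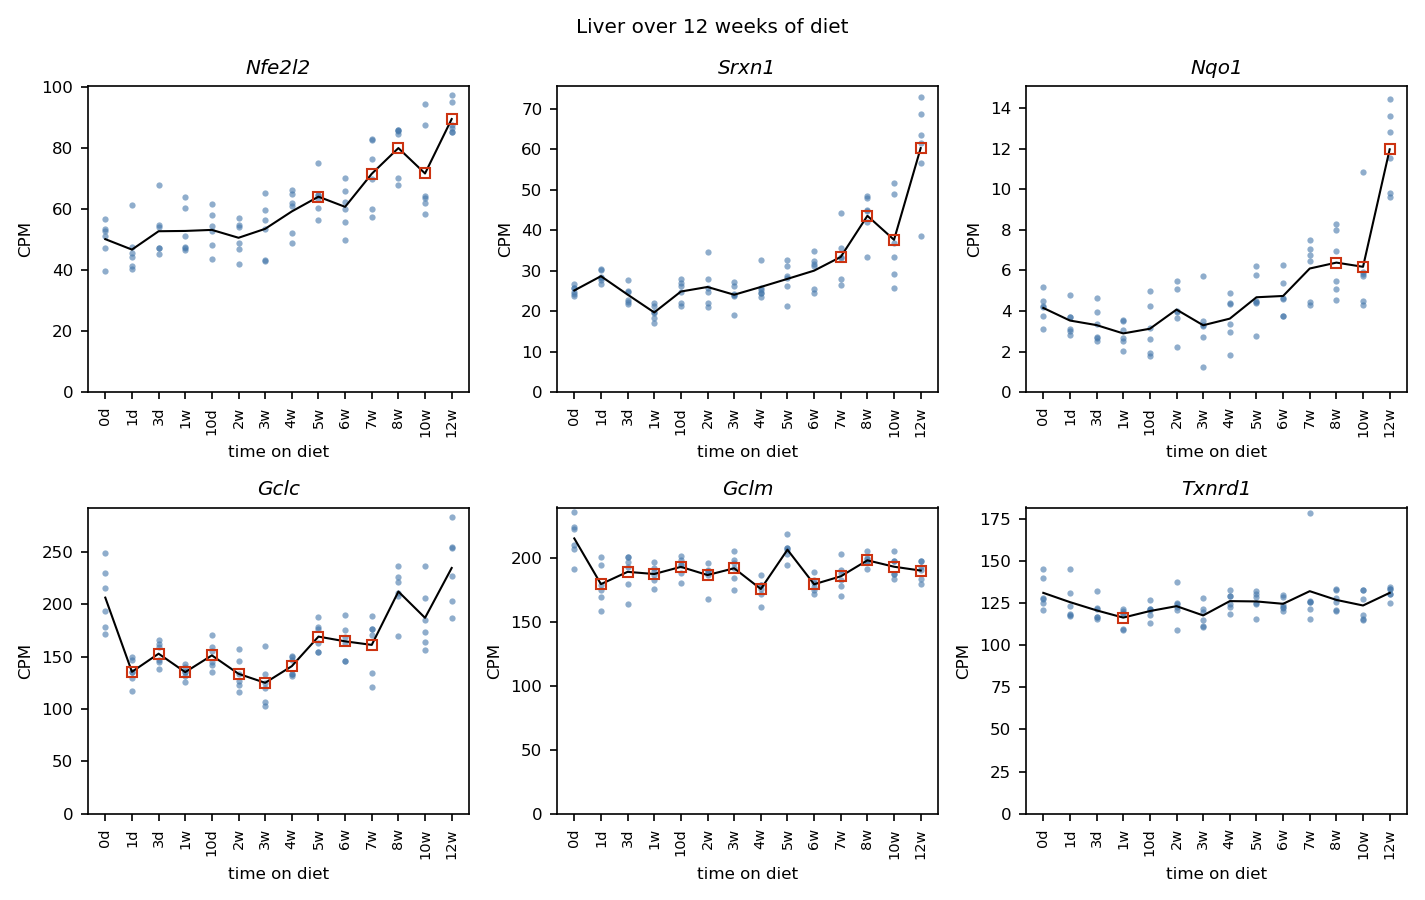
CPM (TMM-scaled) of Nfe2l2, Srxn1, Nqo1, Gclc, Gclm and Txnrd1 in liver at 14 time points. Dots are libraries, the line joins the means of 6, and red squares mark time points called against 0 days by edgeR. Gclc lies below 0 days from 1 day to 7 weeks and returns, Gclm stays below, and Srxn1, Nfe2l2 and Nqo1 rise in the last time points.

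Some of the other pathway genes were also called at these times. At 1 day, when 9.65% of all genes were called, 8 of 17 detoxifying targets fell and 0 rose (median -0.41, all genes -0.01), including the epoxide hydrolase Ephx1 (-0.82), Gstm1 (-0.78) and Ugdh (-0.53). Of 8 genes of glutathione use 3 fell (Slc3a2, the partner chain of Slc7a11, -0.35; Gpx1 -0.24; Gss, the second enzyme of glutathione synthesis, -0.22) and 0 rose, and of 9 heme and iron genes 3 fell. Among regulators Maff fell (-0.69) and 10 of 11 were not called. By 12 weeks, when 42% of all genes were called, 8 of the 17 detoxifying targets were higher and 2 lower (median 0.35), with Ugdh at 0.68, Aox1 at 0.65 and Gstp1 at -1.76.

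NADPH supply rose in 4 of 6 genes at 12 weeks, including Pgd (1.31), Tkt (0.79) and Taldo1 (0.52). Glutathione use rose in 4 of 8 (Gpx4 0.98, Gss 0.26, Oplah 0.27) and fell in 0. Of the 10 thioredoxin and peroxiredoxin genes 4 rose and 2 fell (Prdx3 0.35, Txn1 0.25, Prdx4 -0.56), and of 9 heme and iron genes 5 rose and 3 fell (Fth1 0.51, Fech -0.34). Among regulators Nfe2l1 (0.47) and Sqstm1 (0.35) were higher and Cul3, the scaffold by which Keap1 marks Nrf2 for degradation, lower (-0.36). The aryl hydrocarbon receptor, which is also known to control Nqo1, had 2 of 5 tested genes of its battery lower and 0 higher, Cyp1a1 (-1.43) and Cyp1a2 (-1.62), at 12 weeks, and its part in the change of Nqo1 was not tested.

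Small intestine, where most members were abundant, had calls from the first day on, 42 of 104 tests over the later time points (40.4%, all genes 35.6%). Txnrd1 had 315.7, 327.8 and 349.8 CPM at 0 days and 346.6, 394.7 and 458.6 after 1 day (0.27, SE 0.043, adjusted p = 7.5e-07 by edgeR; 23.5% of all genes were called), and 0.12 at 12 weeks. Hmox1 was low throughout, with 1.41, 1.67 and 2.58 CPM at 0 days and 1.79, 3.28 and 4.11 at 1 day, where 5 of 6 libraries were above all of 0 days (0.86, SE 0.22, adjusted p = 0.0022). With the 3 calls in brown fat (1) and small intestine (2) and the falls of Gclc and Gclm in liver, 5 of 99 tests were called at 1 day (5.05%, all genes 6.34%, of which 3.35% higher and 2.99% lower).

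Srxn1, the member with the highest level per kilobase there, went down. It had 263.7, 279.2 and 297.1 CPM at 0 days, 199.3, 206.8 and 232.2 at 7 weeks (-0.42) and 221.5, 232.5 and 247.2 at 12 weeks, with no overlap at either time (-0.26, SE 0.043, adjusted p = 8.1e-07 by edgeR at 12 weeks), and was called lower at 11 time points, from 1 week to 12 weeks. Nfe2l2 was called higher at 8 time points, and at 12 weeks had 258.3, 278.5 and 280.3 CPM against 192.1, 230.0 and 285.7 (0.24, adjusted p = 0.0070; 0.18 and not called without the least correlated library of each group, adjusted p = 0.061). Gclc was lower at 5 time points, at 4 weeks with 48.0, 53.3 and 62.6 CPM against 63.7, 93.0 and 125.3 (-0.76, adjusted p = 9.4e-05, no overlap), and Nqo1 at 4, at 10 days with 22.8, 26.2 and 28.5 against 29.1, 33.9 and 38.2 (-0.36, adjusted p = 5.2e-05, no overlap).

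At 1 day 23.5% of all genes were called in small intestine. Of the other pathway genes there at that time, 3 of 6 for NADPH supply rose (Me1 1.76, Tkt 0.26, Pgd 0.22). Of 10 for glutathione use 5 rose and 3 fell (Gpx4 0.55, Gpx1 0.26, Glrx -0.45). Detoxifying targets moved both ways, 3 of 17 higher and 4 lower (Cbr1 0.43, Gstm3 -0.69, Gstm1 -1.51), and Cyp1a1 fell by 3.83 on the log2 scale. The repressor Bach1 (-0.55) and Gsk3b (-0.14) fell. Markers of pancreatic acini ran from 5950 to 15720 CPM in sum at 0 days, from 2163 to 29940 at 1 day (0 of 6 called) and from 110.8 to 2416 at 12 weeks (6 of 6 lower). Of 16 macrophage genes 11 were higher and 1 lower at 12 weeks (418.6-482.5 to 497.6-535.6 CPM), when 38.9% of all genes were called. Their part in the members' changes was not tested.

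In pituitary gland 21 of 104 tests were called (20.2%, all genes 37.6%). Slc7a11 had 0.584, 1.3 and 1.5 CPM at 0 days and 1.86, 3.89 and 5.72 at 12 weeks, with no overlap (1.70, SE 0.31, adjusted p = 4.6e-06 by edgeR), and was called at 11 time points. Of 12 ATF4 targets 4 were lower and 0 higher at 12 weeks, when 45.6% of all genes were called, and their part was not tested. Srxn1 was lower at 1, 2 and 4 weeks (-0.63, -0.54 and -0.56) and higher at 12 weeks, where the groups overlapped (171.6, 292.0 and 361.6 CPM at 0 days, 285.1, 454.3 and 611.8 at 12 weeks; 0.72, SE 0.22, adjusted p = 0.0055). Nqo1 was higher at 2 weeks (0.30, adjusted p = 0.017) and lower at 12 weeks (33.2, 43.8 and 51.1 to 30.3, 31.9 and 33.5 CPM; -0.43, adjusted p = 0.00067), with 4 of 6 libraries below all of 0 days. Of 17 macrophage genes 8 were higher, near the share of all genes called there (45.6%), with a summed level of 138.9-175.4 CPM at 0 days and 184.3-217.0 at 12 weeks, and their part was not tested.

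In the brain regions the called changes at 12 weeks lay between -0.53 (Nqo1 in olfactory bulb) and 0.24 (Nfe2l2 in olfactory bulb). Srxn1 rose in 3 of 4 at 12 weeks, each without overlap: hypothalamus (108.2, 111.6 and 121.1 to 125.5, 131.1 and 140.4 CPM; 0.23, SE 0.038, adjusted p = 7.0e-06 by edgeR), olfactory bulb (97.6, 105.8 and 109.0 to 116.4, 120.6 and 124.0; 0.21, adjusted p = 0.00020) and neocortex (78.7, 86.1 and 89.8 to 91.4, 94.0 and 96.8; 0.15, adjusted p = 0.0032). Slc7a11 fell at 12 weeks in the 2 regions where it was most abundant, olfactory bulb (66.6, 75.4 and 82.7 to 51.7, 61.7 and 68.0 CPM; -0.31, adjusted p = 0.0055) and neocortex (48.2, 51.3 and 57.2 to 37.9, 43.5 and 52.0; -0.25, adjusted p = 0.0024), with overlap in both. In hippocampus, where its 0-day libraries spread from 25.9 over a median of 39.5 to 53.0 CPM, Slc7a11 was lower at 4 weeks (23.8, 26.1 and 29.3 CPM; -0.54, SE 0.14, adjusted p = 0.0066 by edgeR), with 2 of 6 libraries below all of 0 days, and was not called at 12 weeks (0.16, adjusted p = 0.42).

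Gclm was lower in neocortex at 7 time points, including 10 weeks (-0.18, no overlap) and 12 weeks (-0.14, adjusted p = 0.012 by edgeR), in hypothalamus at 4 and in hippocampus at 6 and 7 weeks (-0.18 at both). Nqo1 was lower in olfactory bulb (-0.53, adjusted p = 0.0019), and Nfe2l2 higher in olfactory bulb (0.24, adjusted p = 0.015) and neocortex (0.20, adjusted p = 0.049). The call of Nfe2l2 in neocortex was lost in 4 of the alternative settings, and that of Gclm there without the least correlated library of each group (-0.10, adjusted p = 0.11). The call of Gclm at 4 weeks in olfactory bulb (0.15) was lost without the library that resembled hypothalamus (0.01). Of the tests at all later time points 21 of 104 were called in neocortex (20.2%, all genes 13.2%), 17 of 104 in olfactory bulb (16.3%, all genes 14.7%), 10 of 104 in hypothalamus (9.62%, all genes 4.72%) and 3 of 104 in hippocampus (2.88%, all genes 5.61%). In neocortex 3 of 16 macrophage genes, which microglia also express, were called lower at 12 weeks (368.0-411.7 to 311.6-372.9 CPM), below the share of all genes called there at that time (25%).

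In soleus Nqo1 had 11.2, 15.0 and 23.4 CPM at 0 days and 24.2, 26.3 and 44.1 at 12 weeks, with no overlap (0.86, SE 0.25, adjusted p = 0.033 by edgeR), and Nfe2l2 rose from 37.6, 45.0 and 60.2 to 58.0, 66.3 and 78.4 CPM (0.52, adjusted p = 0.015), with 5 of 6 libraries above all of 0 days. Both calls were lost in a fit of the 0-day and 12-week libraries alone (adjusted p = 0.12 and 0.17). They were the only 2 calls among 91 tests of all later time points (2.2%, all genes 1.23%). Srxn1 (0.99, adjusted p = 0.22) and Gclc (0.75, adjusted p = 0.19) were not called. Without the libraries that stood apart, replicate 1 of 0 days among them, both were called (Srxn1 1.44, adjusted p = 0.0039; Gclc 0.59, adjusted p = 0.0082). The summed level of genes of fast muscle in soleus ran from 51570 to 264700 CPM at 0 days and from 38530 to 109800 at 12 weeks, and its part was not tested.

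In gastrocnemius 3 of 91 tests were called (3.3%, all genes 9.68%), all of them Nqo1, at 3 weeks (0.71), 7 weeks (0.70) and 10 weeks (0.91), and at 12 weeks it was 0.51 (adjusted p = 0.16 by edgeR). Without the libraries closer to soleus the change at 3 weeks was 0.25 and not called, that at 10 weeks 0.64 and still called (adjusted p = 0.0034), and Nqo1 (0.52, adjusted p = 0.021) and Gclm (-0.34, adjusted p = 0.030) were called at 12 weeks. In pancreas 1 of 91 tests was called (1.1%, all genes 1.79%), Srxn1 at 3 weeks, with 0.962, 1.73 and 2.35 CPM against 2.31, 3.52 and 4.38 (-0.98, adjusted p = 0.038).

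The genes whose mean log2 CPM was most like that of a member over all groups of organ and time point differed from member to member, and these likenesses mostly reflect differences between organs. Among 13263 genes Nfe2l2 was most like Mvp (r = 0.972), Ifi35 (0.957) and Psme2b (0.939), Nqo1 like Gadd45a (0.875), Rpa2 (0.866) and Metap1 (0.866), and Hmox1 like Arhgap29 (0.930), Sod3 (0.926) and Mdfic (0.925). Slc7a11 was most like Tyro3 (0.963), Bcl11a (0.958) and Nptx2 (0.955), Gclc like Lpin2 (0.944), Tbcel (0.941) and Rnf103 (0.938), and Gclm like Tmem183a (0.948), Zdhhc9 (0.937) and Aldh3a2 (0.925). Txnrd1 was most like Tbx3 (0.929), Glrx (0.923) and Mob1b (0.915). No member was among the 3 genes most like another member. Over the 16 time-point means of epididymal fat alone, among 11322 genes, Hmox1 was most like Ctsk (0.994), Vat1 (0.993) and Hpgds (0.993) and Srxn1 like Mocos (0.993), Anxa4 (0.991) and Stxbp3 (0.989), while for the other members the highest r lay between 0.908 (Gclm with Trmt2b) and 0.979 (Txnrd1 with Mtss1).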

How the data were processed

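The deposited values are raw read counts per gene symbol, 1 column per library. They were made with featureCounts 1.6.3, HISAT2 2.1.0, SAMtools 1.9, Trimmomatic 0.38 and FastQC 0.11.7 on build mm10 (GRCm38), per the submitters' processing notes; the order of steps, the annotation and the counting's strand setting are not given in the sources used. The libraries were made with a kit that keeps the strand, per the labels' protocols. The 8 members and the gene lists were chosen with earlier results of these data known.

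Each organ was fitted on its own over all its libraries with edgeR 4.0.16 in R 4.3.3: filterByExpr (12391 to 15225 genes kept), TMM, 1 coefficient per time point, glmQLFit and glmQLFTest, two-sided, Benjamini-Hochberg adjustment over all genes, threshold 0.05. SE was taken as the size of the log2 fold change divided by the root of the F statistic. Differences between organs were interactions in 1 fit of both. Organ orders used log2(CPM + 0.1) on library totals, since TMM across organs moved ranks. Correlations used log2 CPM with a prior count of 2. Libraries held 7670532 to 27036098 counts, so that members near 1 CPM are limited by counting error, which is all that intervals and floors cover. All 8 members are named in every organ; of the 20 lists, the 3 members with the smallest p in epididymal fat and liver at 12 weeks and in small intestine and liver at 1 day, and for likeness the 3 genes with the highest r (for Srxn1 over all groups, not reported here). Only the main edgeR fit was tested on simulated counts, for liver and epididymal fat at 12 weeks. Alternatives were RLE size factors, no filter, DESeq2 1.42.0, a fit of only the 2 groups compared, a block on the replicate number, and libraries left out. Python 3.11.15, pandas 2.3.3, numpy 2.4.6, scipy 1.17.1 and matplotlib 3.10.9 were used.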

Additional observations from a re-analysis of the deposited data

Results flagged for a closer look

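Of 85 groups of 6 libraries, 7 had a library that lay far from the rest. Its gap to the nearest, as a share of the group's range, passed Dixon's 95% critical value (chance flags about 1 in 20 groups). Hmox1 and Srxn1 in brown fat at 2 and 7 weeks were added to the groups by choice, and the other groups came from called comparisons. Every flag in brown fat came from the added groups, so 7 of 85 cannot be set against the chance rate. Without the added groups the share flagged was about 1 in 20, as by chance. In brown fat at 7 weeks replicate 1 was highest for both Hmox1 (249.2 CPM against 18.0 to 99.5 in the others, gap 0.648 of the range) and Srxn1 (247.4 against 57.9 to 127.4, 0.633). In brown fat at 2 weeks replicate 6 was highest for Srxn1 (147.2 against 57.9 to 78, 0.774). Without these libraries Hmox1 at 7 weeks (0.50) and Srxn1 at 2 weeks (0.32) were no longer called by edgeR, and Srxn1 at 7 weeks was (0.72).

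In inguinal fat replicate 6 at 0 days was highest for Gclm (49.1 CPM against 29.1 to 33.8, 0.767). In small intestine replicate 6 at 0 days was highest for Hmox1 (2.58 against 1.41 to 1.75, 0.707), and replicate 6 at 12 weeks was lowest for Txnrd1 (336.4 against 359.7 to 365.5, 0.798). In epididymal fat at 20 weeks replicate 4 was lowest for Slc7a11 (0.861 against 2.49 to 3.31, 0.667). Each of these 4 comparisons was still called without that library.

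The change at 12 weeks differed between fat depots by edgeR's interaction test in 8 of 24 tests. Of all genes, 39.4% were called between epididymal and inguinal fat, 39.9% between epididymal and brown fat and 30.4% between inguinal and brown fat. Between epididymal and inguinal fat the differences were 1.24 for Hmox1, 0.42 for Nfe2l2, -1.03 for Nqo1 and 5.63 for Slc7a11. Between epididymal and brown fat they were 2.53 for Hmox1, 0.42 for Nfe2l2 and 1.23 for Srxn1, and between inguinal and brown fat 0.60 for Gclm. Their causes were not tested.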

How the results depend on the processing

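The 33 calls at 12 weeks became 32 with RLE size factors, 33 with no filter, 34 with DESeq2, 36 with the 2 groups alone, 35 with the replicate block, 32 without the least correlated library of each group and 37 without the libraries that stood apart, an alternative added after seeing the data; 32, 32, 33, 30, 32, 27 and 33 of these were among the 33. The 5 calls at 1 day became 5 to 7 and the 8 differences between organs 8 to 11. Leaving out 1 library at a time gave 6 to 7 calls in epididymal fat and 4 to 5 in liver. No change against 0 days and no difference between organs in such a change reversed its direction under the alternatives run for it, but places in the 0-day order of organs turned with TMM factors over all organs, as for Nqo1 in pituitary gland and small intestine. Calls of single members were lost for Slc7a11 in epididymal fat at 20 weeks (adjusted p = 0.062 without the least correlated libraries), Nfe2l2 in neocortex (adjusted p 0.050 to 0.12 over 4 settings), and Nqo1 (adjusted p 0.054 to 0.12 over 3 settings) and Nfe2l2 (0.082 to 0.17 over 2) in soleus, besides those named above; the cause was not tested. Organs were taken at dissection, so same-numbered libraries of 0 days and 12 weeks come from different mice. What such libraries may share by number was not tested. In no organ did all 6 pairs of 0 days with 12 weeks correlate over 0.1, or all 6 libraries correlate best with their own number. In hippocampus and soleus 4 of 6 pairs were over 0.1 (median r 0.383 and 0.401, with soleus running from -0.725 to 0.916). In liver, olfactory bulb, pancreas and pituitary gland 3 of 6 were (medians 0.155, 0.0827, 0.0996 and 0.119). The most libraries best with their own number were 4 of 6 in liver and 3 of 6 in olfactory bulb. At 12 weeks same-numbered libraries of epididymal and inguinal fat correlated at 0.108 to 0.423, 6 of 6 over 0.1 and 5 best with their own number, a hint from the data. The block left the count of differences between organs at 8. It holds 1 effect per replicate number over all time points, so it cannot take up a pairing of mice within a time point. Depth limits Slc7a11 outside brain and Nqo1 in pancreas.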

Other observations

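In brown fat the spread of Hmox1 between libraries of 1 time point was wide at some time points and narrower at others. The genes most like it within time points over 84 libraries, chosen after the data were seen among 10484 genes, were the small Maf gene Maff (r = 0.835), the LIM-domain gene Pdlim1 (0.804) and the tubulin gene Tubb6 (0.771), values that share library and depth. Without replicate 1 of 7 weeks they were 0.809, 0.786 and 0.735. At 7 weeks, on library totals, Hmox1 ran from 18.2 to 263.9 CPM, Maff from 11.3 to 116.8 and Tubb6 from 14.2 to 88.5. At 2 weeks Hmox1 ran from 4.34 to 11.4 CPM. At 0 days Hmox1 ran from 14.9 to 82.8 CPM, while Maff ran from 7.46 to 8.88 and Tubb6 from 12.5 to 17.3. Maff is a partner of Nrf2 and is also known as an immediate stress gene.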
